A study of Homo sapiens and Mus musculus with 92 samples.

Results

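This account covers 10 genes that mark the granules, surface receptor and mediators of mast cells, basophils and eosinophils: PRG2, PRG3, EPX, CLC, TPSAB1, TPSB2, CPA3, HDC, MS4A2 and HPGDS. They were taken from the 28103 gene rows of the RNA-seq count tables by symbol, and they were chosen from results of these same data, because PRG2 and TPSAB1 were lower after knockdown of MLL1. All 10 symbols had a row in both tables. The RNA came from HEL cells, an established human erythroleukemia line that the labels call an erythroblast. MLL1 (gene KMT2A), a histone H3K4 methyltransferase, was depleted in 3 libraries and set against 3 control libraries; AF9 (gene MLLT3), a chromatin reader that is a frequent fusion partner of MLL1 in leukemia, was depleted in 2 libraries and set against 2 controls of its own. The labels give the controls as WT and the depleted cells as MLL1 knockdown or AF9 knockdown. Cells of every group were transduced with a lentivirus, per the study's methods, that carried a hairpin RNA against the target or the TRC control hairpin, and each target was reduced in these libraries by a single hairpin. Since the MLL1 comparison was used to choose the genes, its values are given as a description, with no p-value for any of the 10 genes, and its counts of called genes support nothing about them. The AF9 comparison, which shares no library with it, is the one in which the genes were tested. The genes were chosen with earlier results of these data known, so this test may not be fully independent of the choice.

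Mast cells, basophils and eosinophils are granulocytes of the allergic response that arise from progenitors related to those of red cells and platelets, with GATA transcription factors active in both branches. PRG2 encodes major basic protein, the core protein of the eosinophil granule that basophils and mast cells also make; PRG3 encodes its homologue, EPX eosinophil peroxidase and CLC the Charcot-Leyden crystal protein. TPSAB1 and TPSB2 encode the tryptases and CPA3 the carboxypeptidase stored in mast cell granules. HDC encodes histidine decarboxylase, which makes histamine, HPGDS encodes hematopoietic prostaglandin D synthase, and MS4A2 encodes the beta chain of the high-affinity IgE receptor.

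Reads of several of these genes cannot be placed on 1 gene with certainty, and the tryptases are the clearest case. In the GENCODE v44 models (hg38), TPSAB1 (chr16:1240379-1242554, plus strand) and TPSB2 (chr16:1227272-1230184, minus strand) have coding sequences of 825 bases that align without a gap, with 4 substitutions and 99.5% identity, and the longest identical run is 667 bases. The 60-base stretch of coding bases 96 to 155 (counted from the start codon) holds 3 of these substitutions and is shown, from the GENCODE transcripts, because so little else in the coding sequence separates the copies; capitals mark the differing bases.

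TPSAB1: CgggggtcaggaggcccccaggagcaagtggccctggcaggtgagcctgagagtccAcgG

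TPSB2: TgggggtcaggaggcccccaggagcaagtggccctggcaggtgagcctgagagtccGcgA

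Of all 31-base stretches of the TPSAB1 transcript, 81.3% also occurred in a transcript of another gene, 80.8% in TPSB2 and 17% in TPSD1, a further tryptase gene. For TPSB2 the share was 81.8%. PRG2 (chr11:57386780-57390650, minus strand) shared 54.5% of its stretches, all of them with 1 gene model, a readthrough transcript that joins PRG2 to its neighbour SLC43A3 and has no row of its own in the count tables. The share was 3.12% for MS4A2, 0.93% for EPX and 0.447% for HPGDS. It was 0% for PRG3, CLC, CPA3 and HDC, so the counts of CPA3 (chr3:148865296-148897203, plus strand) and HDC (chr15:50241947-50265965, minus strand) rested on sequence of their own.

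Promoter windows were in the RefSeq-based table (GRCh38.p14) for 6 of the 10 genes, and each window ran from 250 bases before to 50 after the start. Both strands were searched for the letters to which GATA factors are known to bind: AGATAA, the form that begins with T instead (TGATAA), and those that end in G (AGATAG, and likewise TGATAG). No matches in the windows of the 6 genes overlapped. At least 1 match was present in 5 of the 6 windows (CPA3, HPGDS, MS4A2, PRG3 and CLC, but not HDC), and in 25% of the 35116 windows of all genes. The stretches upstream of CPA3 and HPGDS are shown because both held a pair of matches and both genes fell in the AF9 comparison below. Each runs 5′ to 3′ on the strand of the gene over the 180 bases before the start, chr3:148865116-148865295 for CPA3 (plus strand) and chr4:94342837-94343016 for HPGDS (minus strand), with the matches in capitals.

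CPA3: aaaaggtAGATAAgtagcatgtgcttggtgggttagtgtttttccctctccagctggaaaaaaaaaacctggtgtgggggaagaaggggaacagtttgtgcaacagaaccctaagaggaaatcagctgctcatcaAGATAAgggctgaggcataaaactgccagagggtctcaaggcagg

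HPGDS: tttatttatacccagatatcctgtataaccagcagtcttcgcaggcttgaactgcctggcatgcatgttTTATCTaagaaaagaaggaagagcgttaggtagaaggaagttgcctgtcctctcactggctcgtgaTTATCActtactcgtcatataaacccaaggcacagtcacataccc

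The first base of the CPA3 matches lay at positions -173 and -45 from the start, and that of the HPGDS matches, read on the opposite strand as TTATCT and TTATCA, at -111 and -45. The single MS4A2 match began at -54. Such matches are letters in a window, and binding was not measured here.

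The libraries held 6966345 to 14232408 counts. In the MLL1 experiment both libraries numbered 1 stood apart: the chi-square per degree of freedom between libraries of 1 group was 30.2 to 56.6 for pairs with replicate 1 and 2.37 to 2.66 for replicates 2 and 3. Values without them are given where they matter. The targeted genes were lower in every knockdown library. KMT2A went from 1292 ± 33.7 CPM (counts scaled to library size; SD, n = 3) to 820 ± 10.3 (SD, n = 3), a log2 fold change of -0.66 ± 0.09 (SE) with an adjusted p of 0.0722 in edgeR's quasi-likelihood test and of 2.47e-07 with the replicate number as a block. MLLT3 went from 537 ± 14.6 to 99.9 ± 10.4 CPM (SD, n = 2 each), a log2 fold change of -2.43 ± 0.11 (adjusted p = 2.93e-08, edgeR). Erythroid genes were abundant in these cells, with HBG2 (a fetal globin) at a mean of 1430 TPM (counts scaled by gene length and library size) in the MLL1 controls and 24444 TPM in the AF9 controls.

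Of the 10 genes, 7 were expressed, at mean levels of at least 2.40 TPM in each of the 4 groups, and these 7 passed the filter on low values, a mean TPM of 1 or more within an experiment. The other 3 were near 0. CLC had 0 counts in all 10 libraries, which allows a level of up to 0.218 to 0.425 CPM, depending on the library (3 counts, counting error only). EPX had 1 count in 1 control library of the MLL1 experiment and 0 counts in the other libraries. PRG3, which lies beside PRG2 on the same strand at chr11:57376769-57381150, had 1 count in each of 3 libraries and 0 in the rest. The eosinophil ribonuclease genes RNASE2 and RNASE3 had 0 counts in all libraries.

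Levels per length ranked the 7 genes differently in the control groups of the experiments. In the AF9 controls PRG2 was highest at 1490 TPM, followed by HDC at 738, CPA3 at 566, HPGDS at 31.01, TPSB2 at 14.7, MS4A2 at 8.84 and TPSAB1 at 8.51 TPM. In the MLL1 controls PRG2 was again highest at 468 TPM and HDC next at 381 TPM, but TPSAB1 came next at 80.7, followed by TPSB2 at 26.4, CPA3 at 22.5, HPGDS at 14.1 and MS4A2 at 2.40 TPM. The MS4A2 and TPSAB1 levels in the AF9 controls, and the TPSB2 and CPA3 levels in the MLL1 controls, lay close together, and neighbours in these orders were not tested. Much of the TPSAB1 (81.3%), TPSB2 (81.8%) and PRG2 (54.5%) sequence is shared with other transcripts. How reads from shared sequence were counted is not given, so the places of these genes in the orders may depend on it. CPA3 showed the widest ratio between the control groups, with 242 ± 28.4 CPM (SD, n = 2) in the AF9 experiment and 10.6 ± 1.13 CPM (SD, n = 3) in the MLL1 experiment. TPSAB1 was placed the other way, at 3.18 ± 0.49 and 33.2 ± 0.90 CPM. The experiment and anything that differed between its cultures cannot be told apart, so these control levels are values side by side and no more. The plot of levels by library shows every value.

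**Figure D1:**
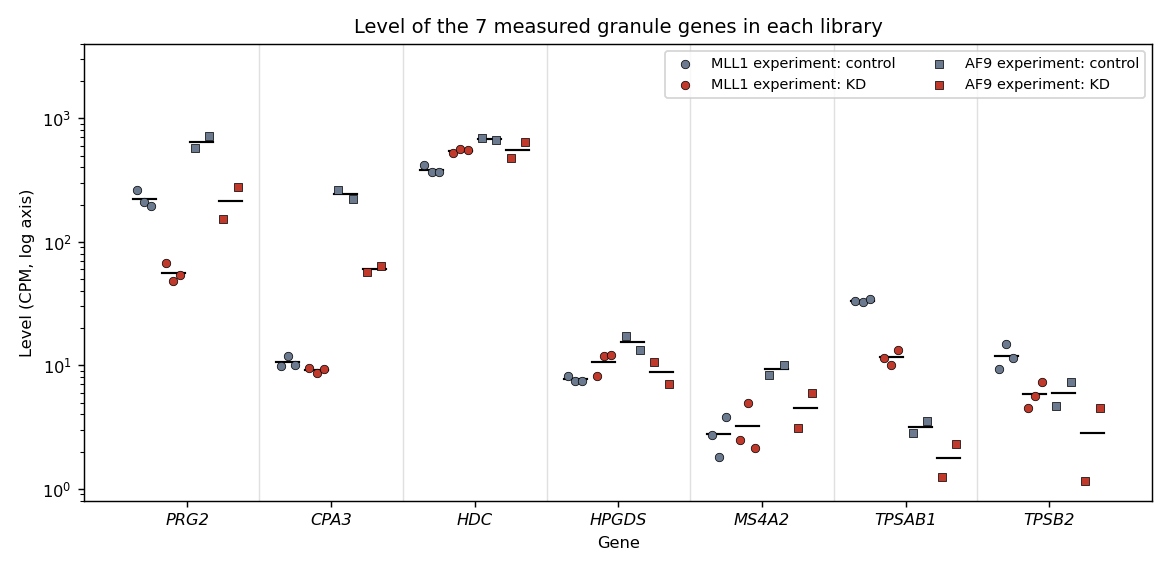
Level in CPM (log axis) of the 7 expressed genes in each library of the MLL1 experiment (circles) and the AF9 experiment (squares), with controls in gray, knockdowns in red and group means as black bars. PRG2 was lower in all 5 knockdown libraries than in the controls of the same experiment, and CPA3 sat near 10 CPM in the MLL1 experiment but went from 242 to 60.3 CPM in the AF9 experiment.

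After AF9 knockdown, 4 of the 7 tested genes fell: CPA3, PRG2, MS4A2 and HPGDS. None rose. None had an unadjusted p under 0.05 for a rise and all 7 had one for a fall, as had 20.3% of all genes tested. DESeq2 also called 4 lower and 0 higher. To be called, a gene had to differ by 1.5-fold or more with an adjusted p under 0.05 (edgeR, Benjamini-Hochberg over all 13350 genes tested), and by that rule 5.06% of all genes tested were called lower and 8.01% higher. The median log2 fold change of the 7 genes was -1.02, beside 0.01 for all genes tested. In all 7, both knockdown libraries lay below both control libraries, as they did in 33.2% of all genes tested. In bulk RNA, fewer cells that express a gene and less RNA per cell cannot be told apart.

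CPA3, the mast cell carboxypeptidase, changed most. It had 3611 and 2645 counts in the control libraries and 741 and 846 in the knockdown libraries, or 262 and 222 against 57.3 and 63.2 CPM. The knockdown level was 24.9% of the control level, a log2 fold change of -2.01 ± 0.11 (SE; adjusted p = 2.97e-07, edgeR), and the difference was several times the spread between libraries in either group. Leaving out any 1 library kept the value between -2.12 and -1.88.

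PRG2, the major basic protein gene, had 7914 and 8613 counts in the controls and 1967 and 3731 after knockdown, or 574 and 723 against 152 and 279 CPM. The log2 fold change was -1.59 ± 0.20 (SE; adjusted p = 0.000141, edgeR). The SD was 105 CPM in the controls and 89.7 CPM after knockdown, smaller than the difference of the means (648 against 216 CPM). Knockdown replicate 1 was the lower of its pair, and the value ran from -2.09 without knockdown replicate 2 to -1.22 without knockdown replicate 1. The neighbour SLC43A3, with which PRG2 shares the readthrough model, went the other way, from 294 ± 6.12 to 371 ± 10.3 CPM (SD, n = 2 each; log2 fold change 0.34 ± 0.09, adjusted p = 0.0146, edgeR), less than the 1.5-fold required for a call.

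The IgE receptor and prostaglandin genes fell by less. MS4A2 had 116 and 121 counts in the controls and 40 and 80 after knockdown, a log2 fold change of -1.02 ± 0.27 (SE; adjusted p = 0.0111, edgeR). HPGDS, in contrast to PRG2 and MS4A2, was lowest in knockdown replicate 2, with 240 and 160 counts in the controls and 137 and 95 after knockdown (17.4 and 13.4 against 10.6 and 7.10 CPM). Its log2 fold change was -0.81 ± 0.21 (SE; adjusted p = 0.0099, edgeR). The HPGDS call was lost without control replicate 1 (-0.60, adjusted p = 0.118) and without knockdown replicate 2 (-0.54, under the 1.5-fold required).

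HDC, the histamine-forming enzyme and the second most abundant of the genes, did not pass. It had 9522 and 7923 counts in the controls and 6158 and 8569 after knockdown, or 691 and 665 against 476 and 641 CPM. The log2 fold change was -0.28 ± 0.13 (SE; adjusted p = 0.109, edgeR). It was -0.08 without knockdown replicate 1 and -0.51 without knockdown replicate 2 (adjusted p = 3.73e-05, edgeR, under the 1.5-fold required); over all alternatives the adjusted p ran from 3.73e-05 to 0.447. The difference between HDC and the genes that fell was not tested.

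The tryptases were near the threshold, and the call depended on how they were counted and corrected. TPSAB1 had 39 and 42 counts in the controls and 16 and 31 after knockdown, a log2 fold change of -0.82 ± 0.35 (SE; adjusted p = 0.0899, edgeR). TPSB2 had 64 and 88 counts in the controls and 15 and 60 after knockdown, a log2 fold change of -1.07 ± 0.42 (SE; adjusted p = 0.0684, edgeR). With the counts of the near-identical copies summed, the controls had 103 and 130 counts and the knockdown libraries 31 and 91, and the summed tryptase passed at -0.98 ± 0.34 (adjusted p = 0.0446, edgeR). Knockdown replicate 1 was much the lower library in each case. GC content moved with this comparison: the 1547 tested genes of at least 60% GC had a median log2 fold change of 0.54, and the tryptase models have 65.7% (TPSAB1) and 63.3% (TPSB2) GC. With offsets that remove the GC trend of each library, both passed, TPSAB1 at -1.51 (adjusted p = 0.00377, edgeR) and TPSB2 at -1.63 (adjusted p = 0.00663, edgeR). CPA3, PRG2, MS4A2 and HPGDS kept their calls. The falls became smaller for CPA3 (-1.83), MS4A2 (-0.82, adjusted p = 0.0414, edgeR) and HPGDS (-0.63), whose models have 38% to 39.4% GC. For PRG2 (52.5% GC) the fall became larger (-1.66). With the offsets 6 of the 7 genes were called lower, beside 4.26% of all genes tested under the same offsets. HDC (-0.28) was not called.

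After MLL1 knockdown, PRG2 and the tryptases were lower, CPA3 stood close to its control level, and HDC and HPGDS were higher. PRG2 and TPSAB1 are the genes for which the group was chosen, so nothing is read from their values here beyond their size. By the same rule, 2 of the 7 genes (PRG2 and TPSAB1) were called lower and 0 higher, beside 0.0347% lower and 0.0347% higher of the 14408 genes tested. Of all genes, 1437 had an unadjusted p under 0.05 (edgeR), among them 3 of the 7 that were lower and 1 that was higher. DESeq2 called 2 of the 7 lower and 0 higher. These counts come from the comparison that chose the genes, and nothing is read from them or from the counts under other settings. With the replicate number as a block, 3 were called lower (TPSB2 in addition) and 0 higher, beside 2.51% and 2.22% of all genes. With replicates 2 and 3 alone, 3 were called lower and 2 higher (HDC and HPGDS), beside 2.36% and 2.49% of all genes.

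PRG2 had 2042, 1527 and 1538 counts in the MLL1 controls and 674, 341 and 498 after knockdown, or 263, 212 and 196 against 67.0, 48.3 and 53.7 CPM. The knockdown level was 25.2% of the control level (log2 fold change -1.99 ± 0.18, SE). The groups lay far apart, and the value was -1.99 without both libraries numbered 1. SLC43A3 was at 471 ± 143 CPM in the controls and 402 ± 141 CPM after knockdown (SD, n = 3 each), and its groups overlapped.

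TPSAB1 had 255, 234 and 269 counts in the MLL1 controls and 115, 71 and 123 after knockdown, or 32.9, 32.5 and 34.2 against 11.4, 10.0 and 13.3 CPM (log2 fold change -1.51 ± 0.17, SE). TPSB2 had 73, 108 and 91 counts in the controls and 45, 40 and 68 after knockdown (log2 fold change -1.04 ± 0.28, SE). Neither tryptase overlapped between the groups. With the counts of both copies summed, the level went from 45.2 ± 2.64 to 17.4 ± 2.76 CPM (SD, n = 3 each), a log2 fold change of -1.37 ± 0.17 (SE).

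CPA3, in contrast, had 77, 86 and 79 counts in the MLL1 controls and 95, 61 and 86 after knockdown, or 9.93, 11.9 and 10.0 against 9.44, 8.63 and 9.27 CPM. The knockdown libraries lay just below the controls, and the log2 fold change was -0.22 ± 0.19 (SE). MS4A2 had only 13 to 35 counts a library, and its groups overlapped (0.18 ± 0.45, SE).

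The enzymes HDC and HPGDS were higher in the MLL1 knockdown libraries. HDC stood at 419, 371 and 365 CPM in the controls and 519, 565 and 552 CPM after knockdown, a log2 fold change of 0.50 ± 0.11 (SE), without overlap. HPGDS stood at 7.496 to 8.12 CPM in the 3 controls and at 8.15, 11.9 and 12.2 CPM after knockdown, a log2 fold change of 0.48 ± 0.23 (SE), and its knockdown replicate 1 was barely above the highest control. Without both libraries numbered 1 the values were 0.60 for HDC and 0.68 for HPGDS.

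**Figure D2:**
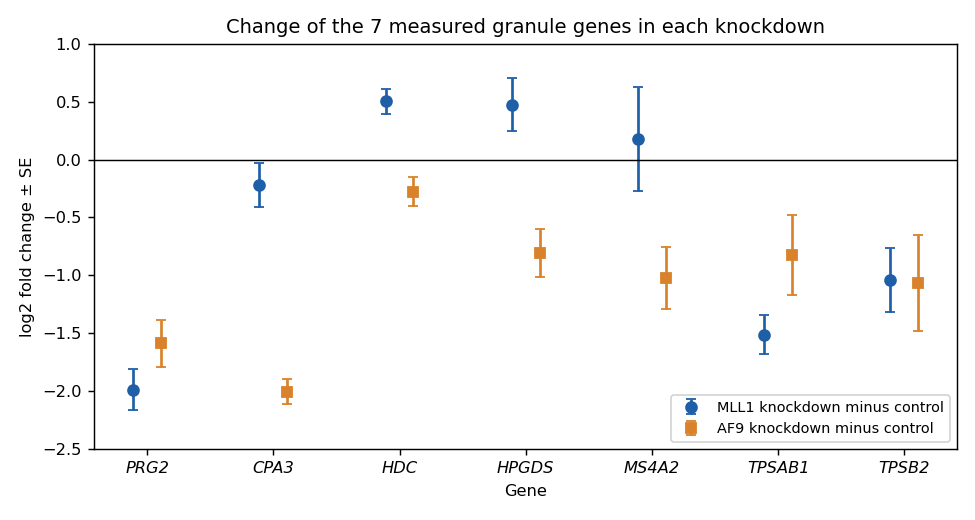
Log2 fold change (knockdown minus control, edgeR) of the 7 expressed genes after MLL1 knockdown (circles, n = 3 against 3) and AF9 knockdown (squares, n = 2 against 2), with bars of 1 SE. PRG2, TPSAB1 and TPSB2 lay below 0 in both experiments, CPA3 was at -0.22 in the MLL1 and -2.01 in the AF9 experiment, and HDC and HPGDS lay above 0 after MLL1 knockdown and below 0 after AF9 knockdown.

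Of the expressed granule genes, PRG2 was the 1 gene called lower in both experiments at the settings given first. With no filter beyond 1 count TPSAB1 was called in both as well. PRG2 and TPSAB1 are the genes whose fall after MLL1 knockdown led to the choice, so only their AF9 calls add anything. The share of all genes called lower in both is not given, and no agreement between the experiments is read from these calls. Set side by side, the log2 fold changes of PRG2 were -1.99 (MLL1) and -1.59 (AF9). Those of TPSB2 were -1.04 and -1.07, and those of TPSAB1 -1.51 and -0.82. CPA3 stood at -0.22 and -2.01, HPGDS at 0.48 and -0.81, HDC at 0.50 and -0.28, and MS4A2 at 0.18 and -1.02. The differences between the experiments were not tested, since the MLL1 values belong to the comparison that chose the genes.

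The tryptase copies also differed between the experiments in how their counts were divided. TPSAB1 took 63.96% to 77.7% of the summed TPSAB1 and TPSB2 counts in the 6 libraries of the MLL1 experiment and 32.3% to 51.6% in the 4 libraries of the AF9 experiment. In AF9 control replicate 2 the share was 32.3%, with a 95% exact binomial interval of 24.4% to 41.1%, and in MLL1 control replicate 1 it was 77.7%, with an interval of 72.8% to 82.1%. The intervals of control and knockdown libraries of the same experiment overlapped in every pair but that of MLL1 control replicate 1 and knockdown replicate 3. The intervals cover counting error only.

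**Figure D3:**
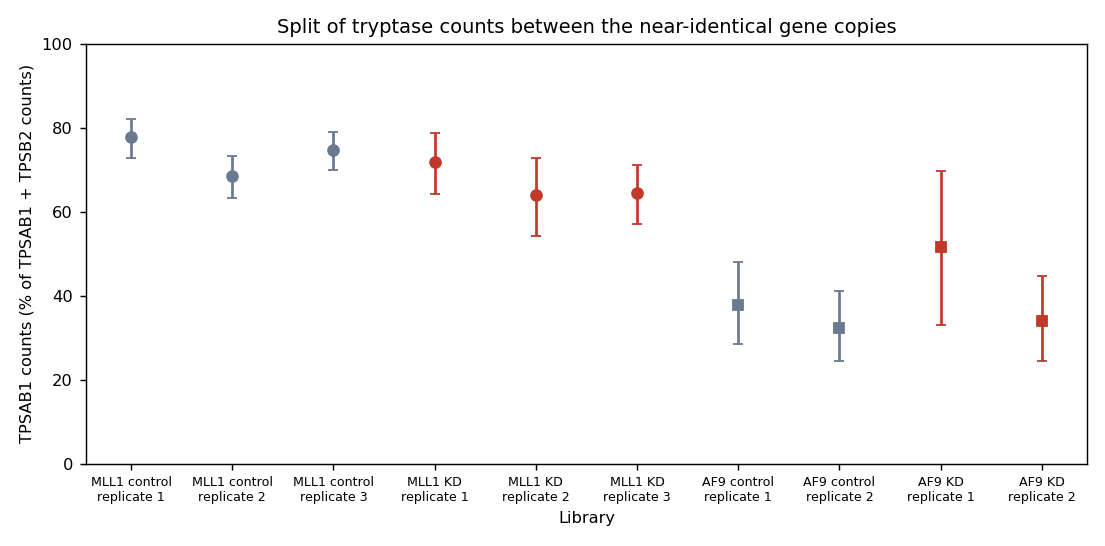
Share of TPSAB1 in the summed counts of TPSAB1 and TPSB2 (percent) in each library, controls in gray and knockdowns in red, circles for the MLL1 and squares for the AF9 experiment, with 95% exact binomial intervals as bars. The MLL1 experiment libraries sit between 63.96% and 77.7% and the AF9 experiment libraries between 32.3% and 51.6%.

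Other mast cell and basophil genes were also lower after AF9 knockdown. Of 16 listed genes outside the 10, 10 were tested, 5 fell and 0 rose, beside 5.06% lower and 8.01% higher of all genes tested. An unadjusted p under 0.05 (edgeR) for a fall was reached by 9 of the 10 tested, beside 20.3% of all genes tested. The median log2 fold change of the 10 tested was -0.63 beside 0.01 for all genes tested. IL1RL1, the interleukin-33 receptor, went from 33.5 and 35.4 CPM to 9.36 and 12.3 CPM (log2 fold change -1.67 ± 0.15, adjusted p = 1.27e-05, edgeR). KIT, the stem cell factor receptor on which mast cells depend, went from 826 and 559 CPM to 278 and 437 CPM (-0.96 ± 0.19, adjusted p = 0.00243, edgeR). ENPP3, the basophil activation marker CD203c, changed by -0.96 ± 0.24 (adjusted p = 0.00792, edgeR), and MS4A3, a myeloid and basophil membrane protein, by -0.66 ± 0.11 (adjusted p = 0.00101, edgeR). SRGN, the proteoglycan serglycin that holds granule proteases, changed by -0.59 ± 0.11 (adjusted p = 0.00149, edgeR). FCER1A, the alpha chain of the IgE receptor, missed the 1.5-fold required, at -0.55 ± 0.10 (adjusted p = 0.00122, edgeR). DESeq2 called 4 lower and 0 higher. With the GC offsets IL1RL1, KIT and ENPP3 kept their calls, and MS4A3 (-0.50) and SRGN (-0.40) fell short of the fold required. TPSD1, the further tryptase gene, named after its values were seen, had 13 and 14 counts in the controls and 4 and 7 after knockdown and was called with the GC offsets (-1.97, adjusted p = 0.0134, edgeR) but not without them (-1.31, adjusted p = 0.0801). The chymase gene CMA1 had 0 counts in all libraries.

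**Figure D4:**
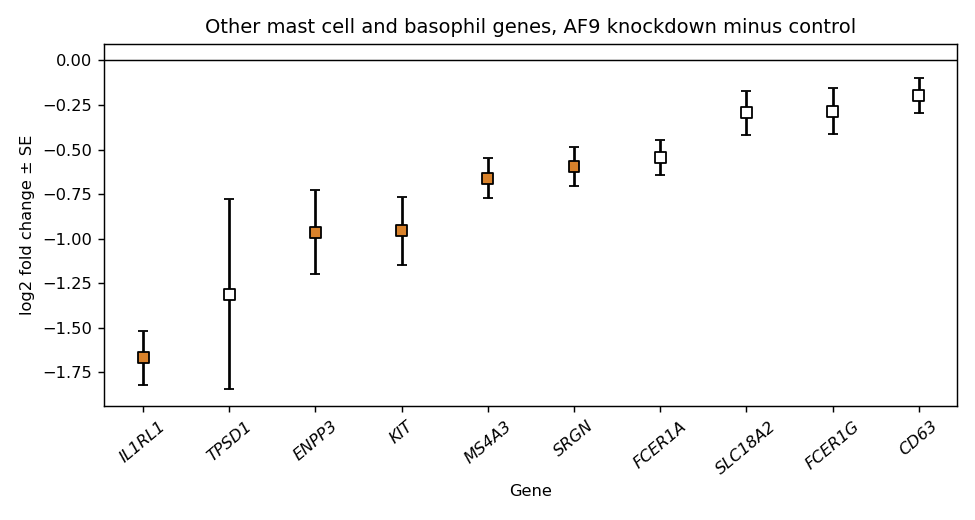
Log2 fold change (AF9 knockdown minus control, edgeR, n = 2 against 2) with bars of 1 SE for the 10 tested genes of the mast cell and basophil list that are not among the granule genes described here. Filled squares mark the 5 genes that were called lower. All 10 values lay below 0, from -1.67 (IL1RL1) upward, beside a median of 0.01 for all genes tested.

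In the MLL1 comparison 11 genes of the same list were tested, and edgeR and DESeq2 each called 0 in either direction. An unadjusted p under 0.05 (edgeR) was reached by 0 that were lower and 3 that were higher. Of all 14408 genes tested, 1437 reached it, lower and higher genes together. The median log2 fold change of the 11 was 0.05, beside 0.01 for all genes tested. IL1RL1 was at 25.4 ± 1.72 CPM in the MLL1 controls and 34.3 ± 5.84 CPM after knockdown, and KIT was at 70.3 ± 14.2 and 65.9 ± 22.6 CPM (SD, n = 3 each). With the replicate block 1 gene of the list was called higher and 0 lower.

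Genes of related pathways were followed in the AF9 comparison as well. Of 6 tested eicosanoid genes, which make prostaglandins and leukotrienes, PLA2G4A (cytosolic phospholipase) fell by 0.60 on the log2 scale (SE 0.11, adjusted p = 0.00119, edgeR) and LTC4S (leukotriene C4 synthase) rose by 1.74 (SE 0.41, adjusted p = 0.00618, edgeR), the latter from 7 and 14 to 34 and 39 counts. Neither was called with the GC offsets. PTGS1 (-0.23 ± 0.09, adjusted p = 0.0836, edgeR), which feeds HPGDS, and LTA4H (-0.03 ± 0.09, adjusted p = 0.823, edgeR) did not pass. None of the 3 tested eosinophil genes passed in edgeR or DESeq2, and 0 had an unadjusted p under 0.05: CSF2RB, the receptor chain shared by interleukin-5 and its relatives, stood at -0.12 ± 0.12 (adjusted p = 0.493, edgeR), PTGDR2 at -0.29 ± 0.22 (adjusted p = 0.328, edgeR) and SIGLEC8 at -0.04 ± 0.38 (adjusted p = 0.951, edgeR). With the GC offsets PTGDR2 passed (-0.67, adjusted p = 0.0203, edgeR).

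Among 9 tested lineage transcription factors, MITF, a mast cell regulator, fell (-0.69 ± 0.12, adjusted p = 0.00132, edgeR), while CEBPA, a myeloid factor, and ZFPM1, the GATA1 partner FOG1, rose from low levels. CEBPA went from 9 and 11 to 39 and 31 counts (1.76 ± 0.39, adjusted p = 0.00456, edgeR) and ZFPM1 from 15 and 20 to 79 and 91 counts (2.23 ± 0.29, adjusted p = 0.000182, edgeR). With the GC offsets ZFPM1 kept its call and MITF (-0.53) and CEBPA (adjusted p = 0.0634) did not. GATA2 (0.05 ± 0.13, adjusted p = 0.785, edgeR), GATA1 (0.27 ± 0.10, adjusted p = 0.0616, edgeR) and STAT5A (0.01 ± 0.10, adjusted p = 0.954, edgeR) did not pass. Their values moved with the GC offsets, each still under the 1.5-fold required. GATA2 then stood at -0.38 (adjusted p = 0.0069, edgeR), GATA1 at -0.13 (adjusted p = 0.274, edgeR) and STAT5A at -0.24 (adjusted p = 0.0499, edgeR).

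Markers of other cell types were followed beside these changes. The 12 erythroid genes were all tested; HBG1 and HBG2 fell (both -0.60, adjusted p = 0.00175 and 0.0029, edgeR), HBA1 and HBA2 rose (1.15 and 1.22, adjusted p = 0.000416 and 0.000703, edgeR; neither called with the GC offsets, nor was HBG1), and HBE1 stood at -0.33 (adjusted p = 0.0805, edgeR). The median log2 fold change of the 12 was 0.40, and 8 were higher and 3 lower at an unadjusted p under 0.05. The heme synthesis enzyme ALAS2 (0.58, adjusted p = 0.000594, edgeR) and the transferrin receptor TFRC (0.58, adjusted p = 0.00931, edgeR), named after their values were seen, were short of the 1.5-fold required, and TFRC was called higher with the GC offsets (0.71). The summed level of the list was 11110 to 11125 CPM in the controls and 7511 to 9482 CPM after AF9 knockdown. None of 6 tested megakaryocyte genes passed in edgeR or DESeq2 (1 lower at an unadjusted p under 0.05), ITGA2B and GP9 standing at 0.21 and 0.03; with the GC offsets GP9 passed (-0.71). Of the 12 neutrophil and monocyte genes, 7 had 0 counts in all libraries of the AF9 experiment, 2 were tested and 0 were called by edgeR or DESeq2 (1 lower at an unadjusted p under 0.05), with a summed level of 90.5 to 97.0 CPM in the controls and 67.0 to 75.5 CPM after knockdown; LYZ stood at -0.39 (adjusted p = 0.0106, under the fold required, edgeR), LTF at -0.37, and CSF1R was not tested. The 3 tested lymphoid genes CD2, CD79A and CD79B were not called by edgeR or DESeq2 (0 at an unadjusted p under 0.05), and the list summed to 11.1 to 11.7 CPM in the controls and 10.9 to 13.7 CPM after knockdown. The part of these levels in the changes of the granule genes was not tested.

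In the MLL1 comparison none of these lists had a call by edgeR without the block. DESeq2 called 2 erythroid genes and 1 eosinophil gene lower and 1 lymphoid gene higher. An unadjusted p under 0.05 (edgeR) was reached by 4 erythroid genes, 2 transcription factors and 1 gene each of the eosinophil and megakaryocyte lists that were lower. It was also reached by 1 gene each of the eosinophil, eicosanoid, neutrophil, megakaryocyte and lymphoid lists that were higher. Of all 14408 genes tested, 1437 reached it, lower and higher genes together. With the block, 6 erythroid genes, 2 eosinophil genes and MITF were called lower, and 1 gene each of the eicosanoid, megakaryocyte and lymphoid lists was called higher. CSF2RB, for instance, went from 590 ± 22.5 to 330 ± 95.4 CPM (SD, n = 3 each). The part of these levels in the values of PRG2 and the tryptases was not tested.

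Among the genes whose pattern was most like that of PRG2 over the 10 libraries, after centring log2 CPM on the mean of each experiment, were CALB2 (Pearson r = 0.982), PSTPIP2 (0.979), DNAJC6 (0.976) and RHOC (0.974), of 12750 genes tested in both experiments. None of the other granule genes was among them. They were picked for the highest values, and the libraries fall into control and knockdown groups.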

How the data were processed

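The 10 RNA-seq libraries of HEL cells were made from polyA RNA by a dUTP method. The deposited tables hold raw read counts per gene symbol; the submitters' processing notes name fastp 0.13.1, HISAT2 2.1.0 and featureCounts 1.6.1 on hg38, and the annotation is not given in the sources used here. From these counts, TMM-scaled CPM were computed, and TPM from GENCODE v44 merged exon lengths (92.4% of symbols matched; the others were filtered on CPM). Knockdown was compared with control within each table by edgeR 4.0.16 (R 4.3.3; quasi-likelihood, two-sided) on genes with mean TPM of at least 1; the thresholds follow the study's methods, which used DESeq2 (here 1.42.0, an alternative). Alternatives were other scalings and filters, other fold thresholds, the replicate number as a block, offsets from a lowess of log2 CPM on GC content (span 0.3), and leaving out each library. The code was tested on simulated data. Same-numbered MLL1 libraries deviated together (r = 0.647, 0.336 and 0.355), each over 0.1. The main fit did not pair them, and only the alternative with the replicate number as a block did. Replicates 2 and 3 correlated as highly across numbers (0.368 and 0.359), so the number sets replicate 1 apart only. The labels do not say that replicates were separate cultures, so p-values may measure technical spread only. By a fixed rule the named genes are the 10 genes, the targets, the called (AF9) and 3 most abundant genes of each list, and the 5 most like PRG2 (some are not reported here); IL1RL1 and KIT in the MLL1 libraries, RNASE2, RNASE3, CMA1 and SLC43A3 were named after their values were seen. The genes and lists were chosen with earlier results of these data known. The 82 other samples (CUT&Tag and PRO-seq) were not analysed here.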

Additional observations from a re-analysis of the deposited data

Results flagged for a closer look

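HDC and HPGDS were above every control library in all 3 MLL1 knockdown libraries and below every control library in both AF9 knockdown libraries. Of all genes tested in the AF9 comparison, 33.2% had both knockdown libraries below both controls, and no such share was computed for the MLL1 comparison. HDC was not called after AF9 knockdown (adjusted p = 0.109, edgeR). HPGDS in MLL1 knockdown replicate 1 stood at 8.15 CPM, beside 8.12 CPM in the highest control. The log2 fold change of HDC was 0.50 after MLL1 knockdown and -0.28 after AF9 knockdown, and that of HPGDS was 0.48 and -0.81. The difference between the experiments was not tested. With 2 or 3 libraries a group, no group was large enough to look for a single outlying library by Dixon's criterion.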

How the results depend on the processing

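The count of 4 genes lower after AF9 knockdown was 3 to 6 over the alternatives and 4 to 5 with 1 library left out, and 0 genes were called higher under each alternative and each left-out library. It was 6 with no filter beyond 1 count, with the GC content offsets and with the replicate block. The share of all genes called lower was 4.26% under the offsets. It was not computed without the filter or with the block, so nothing is read from the counts under those settings. The AF9 libraries share only a number (2 pairs, r = 0.16), so the block is given only here. Under it TPSAB1 (adjusted p = 0.0207, edgeR) and TPSB2 (2.59e-05, edgeR) passed in addition. No setting turned the direction of a called gene. TPSAB1 (-0.82) ranged from -1.34 to -0.44 with 1 library left out and passed without AF9 knockdown replicate 2 (-1.34). TPSB2 (-1.07) ranged from -2.35 to -0.41 and passed without that library (-2.35) or without control replicate 1 (-1.38). The range of MS4A2 was -1.57 to -0.63.

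After MLL1 knockdown the count of 2 genes lower was 1 with total counts in place of TMM, 1 with the GC content offsets, 3 with the replicate block, and 0 to 2 with 1 library left out: it was 0 without any 1 of the 3 controls or of knockdown replicates 2 and 3. The log2 fold change of PRG2 nevertheless stayed between -2.13 and -1.85 and that of TPSAB1 between -1.63 and -1.43. The count of 0 genes higher became 2 with replicates 2 and 3 only, an alternative chosen after seeing the data. The adjusted p of KMT2A was 0.0722, 2.47e-07 with the block, and ran from 4.06e-25 to 0.48 over all alternatives. Low counts limit MS4A2, TPSAB1 and TPSB2, each with under 130 counts in every AF9 library.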
